A study of Homo sapiens with 24 samples.

Results

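The aryl hydrocarbon receptor axis was followed in 6 of the 28307 gene rows of the count table. These were the receptor AHR, its dimerization partner ARNT, the target genes CYP1A1, CYP1B1 and TIPARP, and the repressor AHRR, each found by its symbol. The set was chosen by a measured value, the fall of CYP1A1 under nifuroxazide (NIF) in both cell lines, so the differences between NIF and vehicle of these genes are a description, given without p-values. Whether they passed the threshold is recorded, and nothing is read from it. For CYP1A1 the comparisons of NIF effects between lines or populations are a description too.

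NIF is a nitrofuran antibiotic, and DMSO was its vehicle. The breast cancer line SUM159 and the colon cancer line SW620 were kept under NIF or DMSO for 30 h and then sorted into ALDHbr cells (also labelled ALDHpos cancer stem cells, with high aldehyde dehydrogenase activity in the ALDEFLUOR assay) and ALDHneg cells. This made 8 groups, namely ALDHbr or ALDHneg cells of each line under NIF or DMSO, with 3 libraries in each group and 24 libraries in all, from experiments that the study describes as independent. No other agent or genetic change separates the groups. Each line is a single established culture, the NIF and DMSO groups were sorted after the treatment, and the total count per library ran from 30253187 to 43127948 reads.

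AHR is a ligand-activated transcription factor of the bHLH-PAS family that is held in the cytoplasm by chaperones such as HSP90 and PTGES3. Once it binds a ligand, such as dioxin or a tryptophan metabolite, it moves to the nucleus, pairs with ARNT and binds DNA elements with the core GCGTG. CYP1A1 and CYP1B1 are monooxygenases that oxidize polycyclic aromatic hydrocarbons and estrogens, and they are the classical readout of the active receptor. TIPARP, a mono-ADP-ribosyltransferase, and AHRR, which competes for ARNT, are targets that restrain the receptor in turn.

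In the GRCh38.p14 annotation of RefSeq, CYP1A1 (Entrez 1543) lies at chr15:74719542-74725528, CYP1B1 (1545) at chr2:38067509-38076151 and TIPARP (25976) at chr3:156674590-156706770. AHRR (57491) lies at chr5:321714-438285, AHR (196) at chr7:17298652-17346147 and ARNT (405) at chr1:150809713-150876599. RefSeq promoter windows of this build, from 250 bases before to 50 bases after a start site, were given for 5 of the 6 genes, CYP1B1 being the exception. The core GCGTG was searched on both strands, and 36.5% of all 35116 windows, or 40.6% of 27305 genes in at least 1 window, held it. The longer form TNGCGTG was in a window of 6.7% of genes, and ACGTG, the core bound by HIF1A with ARNT, in one of 24.9%. The single windows of CYP1A1 and AHR, both windows of AHRR and the first of 3 windows of TIPARP held GCGTG. The window of ARNT held neither core, and TNGCGTG was found among these genes in AHRR alone. The 250 bases upstream of CYP1A1 and of the first TIPARP start site are shown because these are the only targets with both a window and enough reads to follow. They lie at chr15:74725529-74725778 on the minus strand and at chr3:156674340-156674589 on the plus strand, are written 5′ to 3′ along the gene's strand, and carry every match of GCGTG or ACGTG, on either strand, in capitals.
CYP1A1: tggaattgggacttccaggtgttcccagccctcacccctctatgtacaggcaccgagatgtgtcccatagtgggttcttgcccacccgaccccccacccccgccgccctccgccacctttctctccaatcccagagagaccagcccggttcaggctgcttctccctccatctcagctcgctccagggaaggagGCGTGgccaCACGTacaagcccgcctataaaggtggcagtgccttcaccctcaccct
TIPARP: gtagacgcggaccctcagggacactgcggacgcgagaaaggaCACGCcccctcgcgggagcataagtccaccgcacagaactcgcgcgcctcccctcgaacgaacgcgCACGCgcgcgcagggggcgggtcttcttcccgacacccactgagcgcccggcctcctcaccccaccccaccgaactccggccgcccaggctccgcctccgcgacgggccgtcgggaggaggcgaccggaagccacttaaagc
The capitals of CYP1A1 are 1 GCGTG on the gene's strand, which starts at -57 when the base before the start site is -1, and 1 ACGTG on the other strand at -48. TIPARP held GCGTG on the other strand at -142 and -208. A match describes these letters and is no evidence of binding.

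Levels are given in CPM, read counts scaled to the library total with TMM factors within a cell line, and a gene was called when its adjusted p from edgeR's quasi-likelihood test with Benjamini-Hochberg adjustment over all genes tested was under 0.05. Unless a block for the replicate number is named, these tests did not pair libraries. The line labels were checked with 10 mesenchymal and 10 colon epithelial markers. The mesenchymal markers summed to between 3273 and 5596 CPM in SUM159 and between 127 and 191 CPM in SW620. The colon markers summed to between 1698 and 2409 CPM in SW620. In 11 SUM159 libraries they held 0.0418% or less of the SW620 mean, but in replicate 3 of SUM159 ALDHbr under DMSO they held 0.305%, with 243 reads, among them 87 of EPCAM and 75 of KRT20, while CDX1 and CDX2 were at 0. This library stands apart, and calls that turn on it are given with and without it. Replicate 2 of SW620 ALDHbr under DMSO had the highest level of its group in AHR, ARNT, CYP1B1 and TIPARP, and calls that turn on it are named. The sort was checked in ALDH1A1 and ALDH1A3, enzymes behind this activity. Under DMSO the level of ALDH1A1 in ALDHbr cells exceeded that in ALDHneg cells by a log2 fold change of 8.11 in SUM159 and 0.54 in SW620. ALDH1A3 was also called higher in ALDHbr cells of SUM159, but it was called lower in those of SW620. The sort under DMSO was thus visible in both enzymes in SUM159 and in ALDH1A1 alone in SW620. Under NIF, ALDH1A1 was called lower than under DMSO in SW620 (-0.46 in ALDHbr, -0.71 in ALDHneg cells). ALDH1A3 was called lower there too (-1.47 and -1.89), and neither enzyme was called in SUM159. As the sort followed the treatment, the gates may hold different cells under NIF than under DMSO. This was not tested and limits each contrast of NIF with DMSO.

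CYP1A1 was lower under NIF in both populations of both lines, at 7.99% to 23.6% of the DMSO mean, and no NIF library reached the level of a DMSO library of its population. In SUM159 ALDHbr cells, CYP1A1 was at 8.50, 6.87 and 2.66 CPM in DMSO replicates 1 to 3 and at 0.590, 0.485 and 0.366 CPM under NIF. The mean of 6.01 ± 3.01 CPM (SD, n = 3) under DMSO fell by 3.63 on the log2 scale (SE 0.44), and the third DMSO library was the low one. Without that library the DMSO mean was 7.69 ± 1.15 CPM (SD, n = 2), and the log2 fold change was -3.99. In SUM159 ALDHneg cells, CYP1A1 was at 20.4, 13.3 and 12.6 CPM under DMSO and at 2.18, 1.07 and 1.14 CPM under NIF. The log2 fold change was -3.35 (SE 0.37), the NIF mean being 9.50% of the DMSO mean, and replicate 1 was the highest library in both groups. The reads behind these values were 413 to 722 per DMSO library and 33 to 97 per NIF library.

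In SW620 the levels of CYP1A1 under NIF were also below those under DMSO, with less spread between replicates. In ALDHbr cells, CYP1A1 was at 7.58, 8.59 and 9.48 CPM under DMSO and at 2.02, 1.75 and 2.29 CPM under NIF. The mean went from 8.55 ± 0.953 to 2.02 ± 0.274 CPM (SD, n = 3), a log2 fold change of -2.08 (SE 0.15). In ALDHneg cells it was at 3.27, 4.38 and 4.22 CPM under DMSO and at 0.643, 0.762 and 0.583 CPM under NIF, a log2 fold change of -2.57 (SE 0.18). All libraries of a group lay close together. In each line and population the same-numbered NIF library was lower in 3 of 3 pairs, which follows from the lack of overlap. These are bulk libraries, so that fewer cells with CYP1A1 RNA and less CYP1A1 RNA per cell cannot be told apart.

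**Figure D1:**
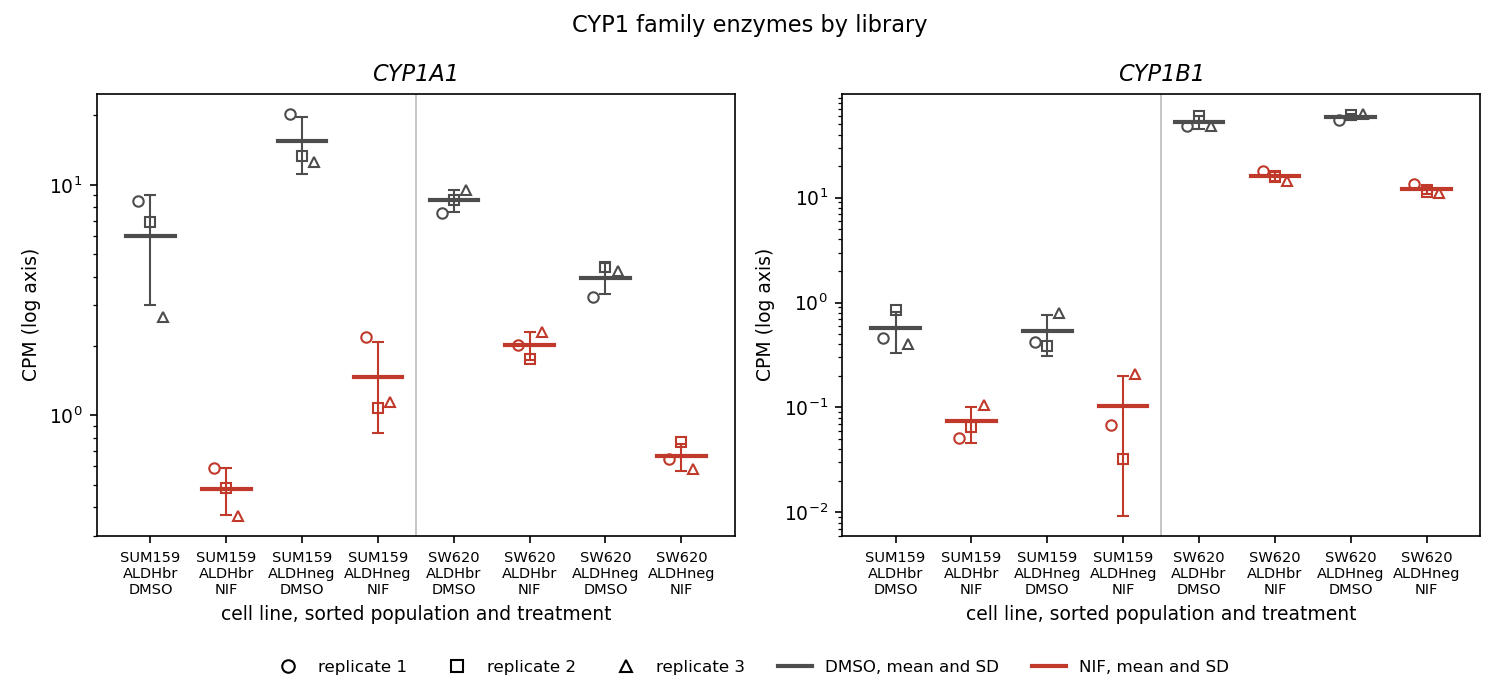
CYP1A1 and CYP1B1 in each library, in CPM on a log axis, by cell line, sorted population and treatment, with symbols for libraries, horizontal lines for group means and bars for the SD. The NIF points of CYP1A1 (0.366 to 2.29 CPM) sit below the DMSO points of the same cells (2.66 to 20.4 CPM), and those of CYP1B1 do so in SW620 (11.1 to 18.0 against 47.9 to 62.2 CPM) and at much lower levels in SUM159.

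CYP1B1 was lower under NIF in all 4 populations as well, from a high level in SW620 and from a few reads in SUM159. In SW620 ALDHbr cells, CYP1B1 was at 47.9, 60.7 and 47.9 CPM under DMSO and at 18.0, 15.9 and 14.6 CPM under NIF, a log2 fold change of -1.69 (SE 0.11). In SW620 ALDHneg cells it was at 54.9, 61.0 and 62.2 CPM under DMSO and at 13.4, 11.4 and 11.1 CPM under NIF, a log2 fold change of -2.31 (SE 0.11). The NIF means were 31.0% and 20.2% of the DMSO means, and the groups did not overlap. In SUM159 ALDHbr cells the 3 DMSO libraries held 15, 25 and 15 reads of CYP1B1 and the NIF libraries 2, 2 and 4 reads, a log2 fold change of -2.88 (SE 0.60). In SUM159 ALDHneg cells there were 15, 12 and 32 reads under DMSO and 3, 1 and 7 under NIF, a log2 fold change of -2.37 (SE 0.56). All NIF counts were below all DMSO counts, but they lay near the limit of 3 reads. In replicate 3 of ALDHbr under DMSO, a SW620 share equal to that of its colon markers would hold 0.180 CPM of CYP1B1, beside the 0.379 CPM measured on the common scale of both lines, and without this library the log2 fold change was -3.08. The part of SW620 reads in that count was not tested.

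TIPARP went in opposite directions in the 2 lines. In SUM159 ALDHbr cells, TIPARP was at 96.9, 96.2 and 85.3 CPM under DMSO and at 60.1, 52.5 and 52.3 CPM under NIF, and the mean under NIF was 59.2% of that under DMSO. In SUM159 ALDHneg cells it was at 108, 102 and 92.5 CPM under DMSO and at 50.7, 48.1 and 48.3 CPM under NIF, or 48.7%. The log2 fold changes were -0.75 (SE 0.08) and -1.04 (SE 0.08), and the NIF and DMSO libraries did not overlap. Without replicate 3 of ALDHbr under DMSO the first was -0.81. In SW620 ALDHbr cells, TIPARP was at 69.7, 81.4 and 68.2 CPM under DMSO and at 101, 94.6 and 86.1 CPM under NIF, a log2 fold change of 0.37 (SE 0.07). In SW620 ALDHneg cells the values were 85.0, 92.9 and 86.1 CPM under DMSO and 95.5, 95.9 and 97.9 CPM under NIF. Their log2 fold change of 0.13 (SE 0.07) was not called in the main fit. In SW620 the NIF libraries were the higher ones, at 129% of the DMSO mean in ALDHbr and 110% in ALDHneg cells, again with no overlap. TIPARP-AS1, which overlaps the TIPARP start on the other strand, had 4 to 31 reads per library beside 1482 to 3862 of TIPARP.

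AHRR was hardly detected. It held 11 reads over all 24 libraries, was at 0 in 18 of them, and did not exceed 3 reads in any, so that it passed the filter on low counts in no fit. A count of 0 allows up to 3 reads, or 0.0676 to 0.102 CPM depending on the library. The reads lay in SUM159 ALDHneg cells under DMSO (2, 1 and 3 reads), in replicate 1 of both SUM159 NIF groups (2 reads each) and in replicate 1 of SW620 ALDHbr cells under NIF (1 read). No difference was detectable at this depth.

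The receptor and its partner were well expressed and moved far less than CYP1A1. In SUM159, AHR was at 77.1, 70.0 and 82.2 CPM in ALDHbr cells under DMSO and at 63.5, 55.3 and 70.4 CPM under NIF. In SUM159 ALDHneg cells AHR was at 108, 71.8 and 89.5 CPM under DMSO and at 80.8, 71.7 and 74.9 CPM under NIF. The NIF means were 82.5% and 84.5% of the DMSO means, with overlapping groups. In ALDHbr cells each NIF library was below the DMSO library of its own number, in 3 of 3 pairs. In ALDHneg cells replicates 1 and 3 were below theirs, while replicate 2 was level, at 99.9% of its DMSO library. The log2 fold changes were -0.28 (SE 0.12) and -0.24 (SE 0.12), not called, and with a block for the replicate number they were -0.28 (SE 0.07) and -0.23 (SE 0.07), both called. Without replicate 3 under DMSO the blocked value in ALDHbr cells was -0.25 and not called. In SW620 ALDHbr cells AHR was at 47.9, 69.7 and 46.3 CPM under DMSO and at 67.1, 58.9 and 50.4 CPM under NIF, and replicate 2 under DMSO was the high library. In SW620 ALDHneg cells it was at 49.8, 49.8 and 51.3 CPM under DMSO and at 57.2, 52.9 and 59.9 CPM under NIF, with no overlap. The log2 fold changes were 0.11 (SE 0.13) and 0.17 (SE 0.13), neither called, and without the high library the first was 0.34 and called.

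ARNT, which also pairs with HIF1A, showed no such shift. In SUM159 ALDHbr cells, ARNT was at 51.6, 51.1 and 54.2 CPM under DMSO and at 48.1, 47.2 and 52.2 CPM under NIF. In SUM159 ALDHneg cells it was at 43.4, 37.1 and 47.8 CPM under DMSO and at 40.2, 43.5 and 45.3 CPM under NIF. The groups overlapped in both populations. In SW620, ARNT was at 23.2, 28.9 and 23.2 CPM under DMSO and at 29.7, 26.7 and 22.8 CPM under NIF in ALDHbr cells, and between 26.2 and 28.4 CPM in all 6 libraries of ALDHneg cells. The NIF means ranged from 94.1% to 105% of the DMSO means, and no contrast was called.

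**Figure D2:**
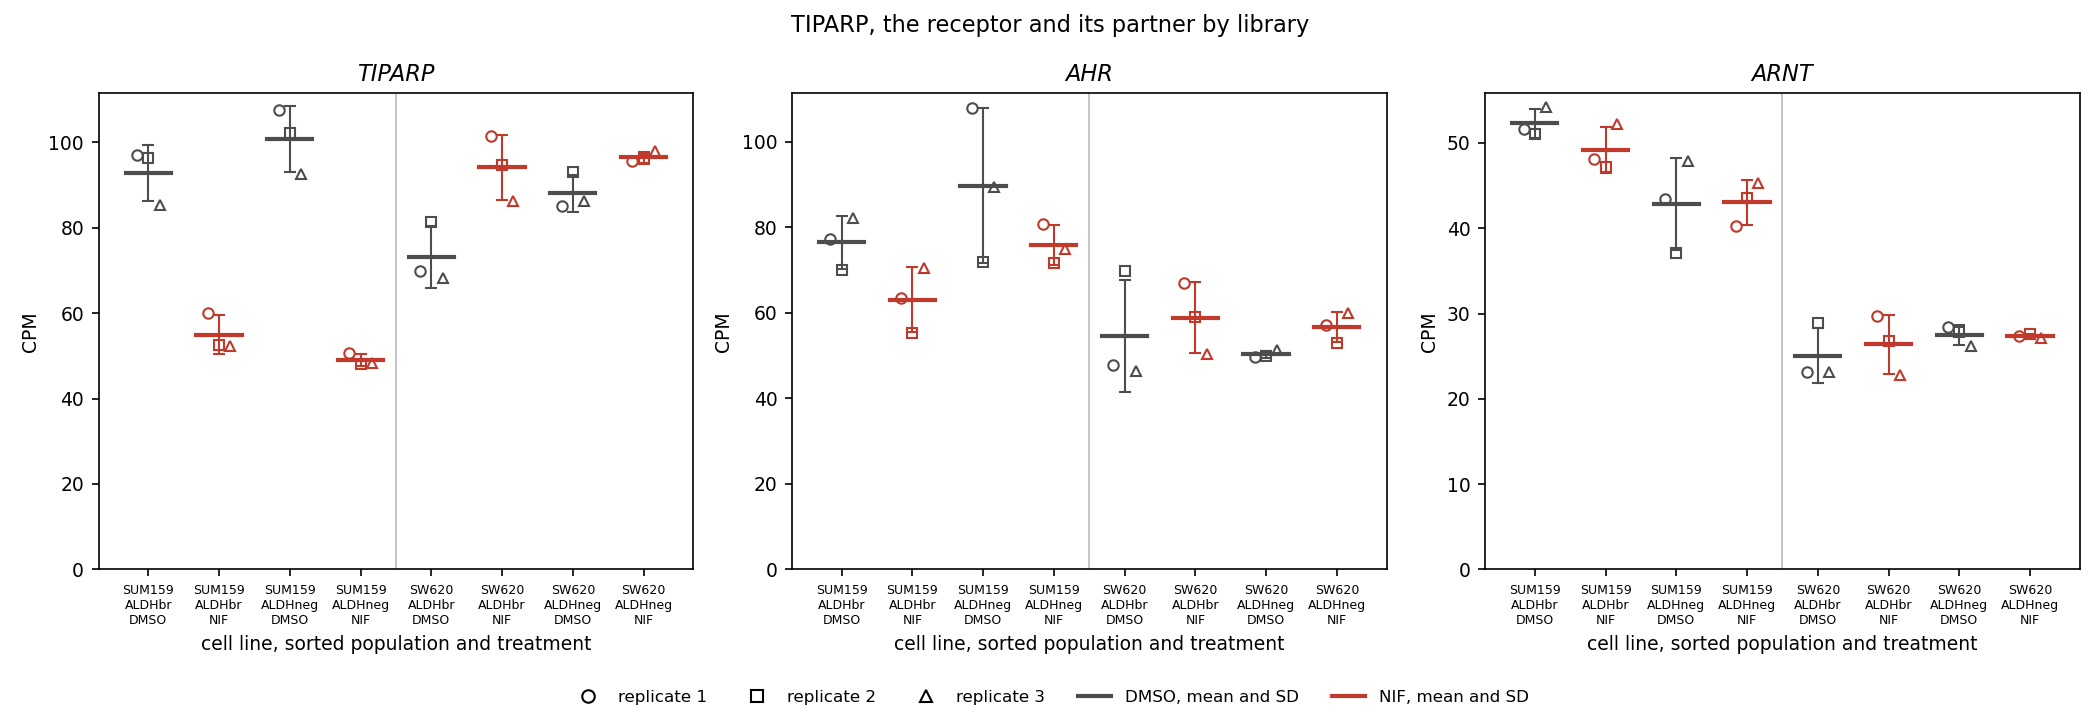
TIPARP, AHR and ARNT in each library, in CPM on a linear axis that starts at 0, by cell line, sorted population and treatment, with symbols for libraries, horizontal lines for group means and bars for the SD. The NIF points of TIPARP lie at 48.1 to 60.1 CPM in SUM159, below all DMSO points of that line, and at 86.1 to 101 CPM in SW620, while the AHR and ARNT points of both treatments lie close together.

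In counts, 3 of the 5 genes tested were called in each SUM159 population (CYP1A1, CYP1B1 and TIPARP, all lower), where 3.16% of the 14953 genes tested were called in ALDHbr and 3.30% in ALDHneg cells. In SW620 ALDHbr cells CYP1A1 and CYP1B1 were called lower and TIPARP higher, where 43.3% of the 13953 genes tested were called. In SW620 ALDHneg cells CYP1A1 and CYP1B1 were called lower, where 45.1% were (3114 higher and 3172 lower, or 2578 and 3957 with scaling by library size alone). The CYP1B1 call in SUM159 ALDHbr cells was lost without replicate 2 under DMSO or replicate 1 or 2 under NIF, and in ALDHneg cells without replicate 1 or 3 under DMSO or replicate 1 or 2 under NIF. Since the set was chosen on this contrast, nothing is read from these counts. With the replicate block, the SUM159 fits called 1994 genes in ALDHbr cells instead of 473, and 1970 in ALDHneg cells instead of 493.

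**Figure D3:**
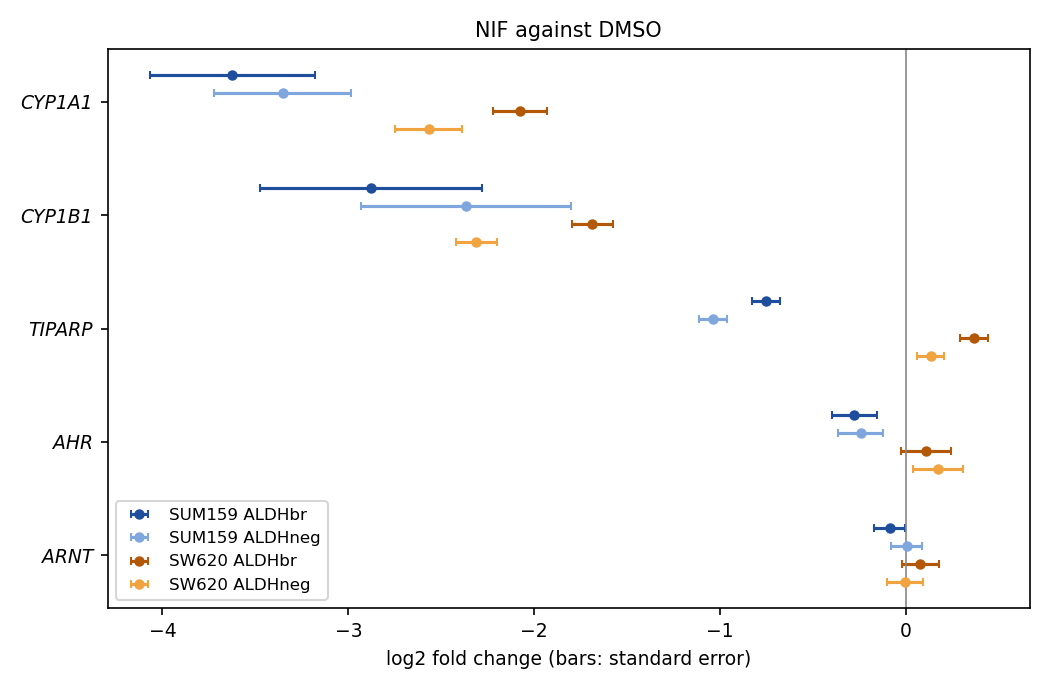
Log2 fold change of NIF against DMSO for the 5 genes tested in each of the 4 sorted populations, with bars for the standard error and a line at 0. CYP1A1 and CYP1B1 lie between -3.63 and -1.69 in all 4 populations, TIPARP lies below 0 in SUM159 and above 0 in SW620, and AHR and ARNT lie between -0.28 and 0.17.

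Whether the NIF effects of the 2 lines differ was examined in a fit of all 24 libraries, the same that the choice of the set rests on, as the SW620 effect minus the SUM159 effect averaged over the populations. The lines differed in TIPARP by 1.15 on the log2 scale (SE 0.08, adjusted p = 3.80e-11). Its NIF and DMSO libraries overlapped in no population, with the NIF libraries lower in SUM159 and higher in SW620. For CYP1A1, given without a test, the difference was 1.16 (SE 0.36), the fall being the smaller one in SW620, and 1.35 without replicate 3 of SUM159 ALDHbr under DMSO. AHR differed by 0.40 (SE 0.14, adjusted p = 0.0244). That call was lost without replicate 1 of SUM159 ALDHneg under DMSO (adjusted p = 0.0644), without replicate 3 of SW620 ALDHbr under DMSO (0.0513) and without replicate 1 of SW620 ALDHbr under NIF (0.0540), as it was with scaling by library size alone (0.0758). For CYP1B1 the difference was 0.63 (SE 0.40, adjusted p = 0.249), with few SUM159 reads behind it, and for ARNT it was 0.08 (SE 0.09, adjusted p = 0.584). Of all 16271 genes tested, 35.1% were called in this comparison. The paper reports final drug concentrations by cell line model, and those of NIF were not known here. A NIF dose that differs between the lines therefore cannot be told apart from the line.

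The NIF effects of ALDHbr and ALDHneg cells of a line were compared by their interaction, in which none of the 5 genes was called. In SUM159 the ALDHbr effect minus the ALDHneg effect was -0.27 (SE 0.59) for CYP1A1, -0.51 (SE 0.88) for CYP1B1 and 0.28 (SE 0.11) for TIPARP. The test called 0 of 14953 genes there (0%), with 238 genes at an unadjusted p under 0.05, TIPARP among them, and 2 by DESeq2. In SW620 the differences were 0.49 (SE 0.24) for CYP1A1, 0.62 (SE 0.15, adjusted p = 0.441) for CYP1B1 and 0.23 (SE 0.11) for TIPARP. Here 1 of 13953 genes was called (0.00717%), with 771 at an unadjusted p under 0.05, CYP1B1 and TIPARP among them, and 29 by DESeq2. Genes without a difference nominally pass an unadjusted threshold of 0.05 at that same rate, so being among such genes carries little weight by itself. In SUM159 the 238 of 14953 genes lay under that rate, in a fit that ignored the pairing. With the replicate block the TIPARP difference in SUM159 was 0.28 (SE 0.07, adjusted p = 0.561), not called. For CYP1B1 in SW620 the unadjusted p of the quasi-likelihood test was 0.00122. The adjusted p of TIPARP in SW620 was 0.900. CYP1B1 depended on replicate 2 of SW620 ALDHbr under DMSO, its highest library in that group, without which the difference was 0.75 (adjusted p = 0.0265).

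The contrast of the sorted populations under DMSO was not used to choose the genes, although its DMSO libraries are those against which the fall of CYP1A1 was measured. CYP1A1 had opposite order in the 2 lines. In SUM159 the ALDHneg cells held more CYP1A1, at 15.4 ± 4.30 CPM against 6.01 ± 3.01 CPM in ALDHbr cells (SD, n = 3), or 2.57-fold. The log2 fold change of ALDHbr against ALDHneg was -1.37 (SE 0.33, adjusted p = 0.00664), and it was -1.002 (adjusted p = 0.0120) without replicate 3 of ALDHbr. In SW620 the ALDHbr cells held more, at 8.55 ± 0.953 against 3.96 ± 0.600 CPM (SD, n = 3), or 2.16-fold, with a log2 fold change of 1.11 (SE 0.13, adjusted p = 0.000106). The groups did not overlap in either line. Under NIF the ratio of the means was 3.05 in both lines, toward ALDHneg in SUM159 and toward ALDHbr in SW620, again with no overlap. The SW620 difference minus the SUM159 difference under DMSO, a test added after the values had been seen, was 2.48 (SE 0.38, adjusted p = 4.17e-05), where 19.1% of genes were called.

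**Figure D4:**
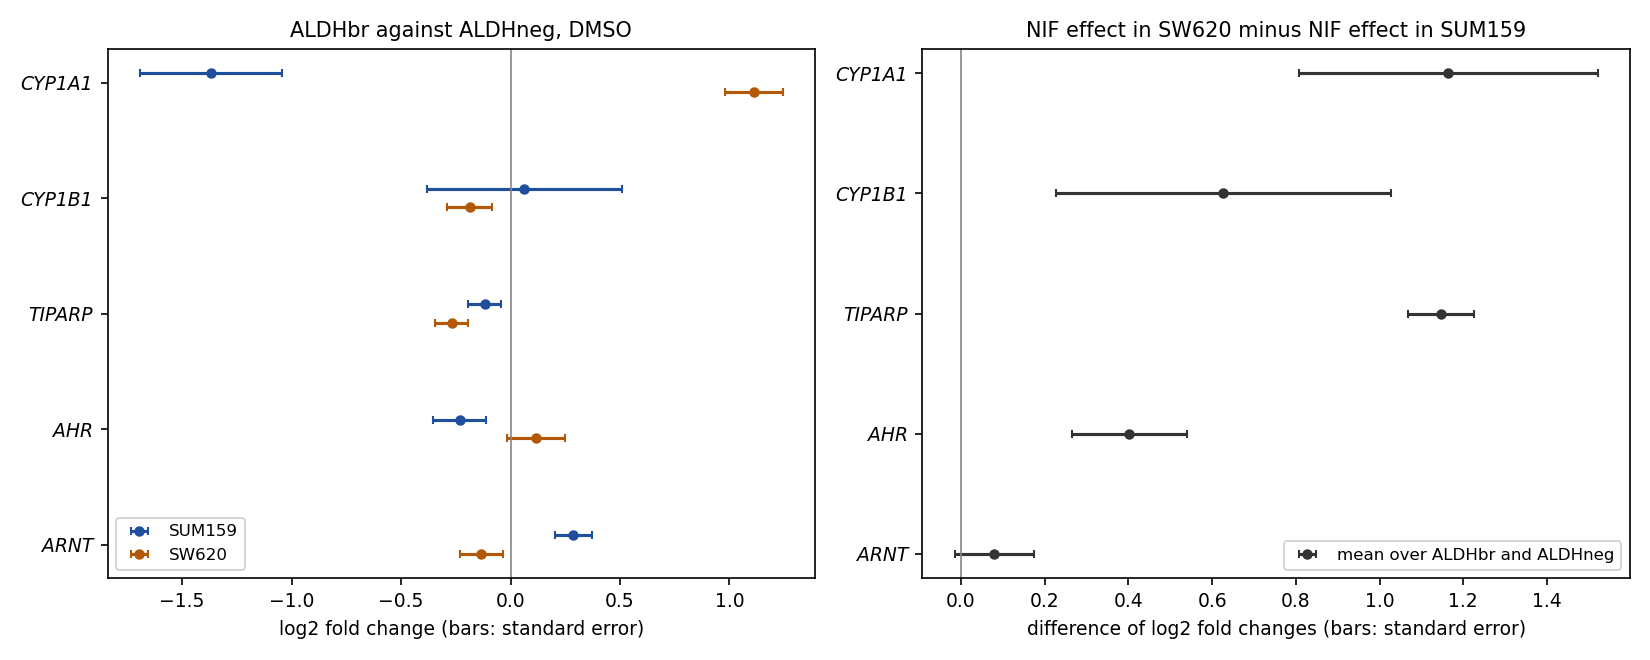
Log2 fold change of ALDHbr against ALDHneg cells under DMSO in each line (left) and the NIF effect in SW620 minus that in SUM159 (right) for the 5 genes tested, with bars for the standard error and a line at 0. On the left CYP1A1 lies at -1.37 in SUM159 and at 1.11 in SW620, and on the right CYP1A1 and TIPARP lie at 1.16 and 1.15.

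The other genes differed less between the populations. In SUM159, ARNT stood higher in ALDHbr cells by 0.29 (SE 0.08, adjusted p = 0.0222), with no overlap, and the call was lost without replicate 3 of ALDHbr (adjusted p = 0.0771) and without replicate 1 (0.0512) or 2 (0.0766) of ALDHneg. TIPARP was lower in ALDHbr cells of SW620 by a log2 fold change of -0.27 (SE 0.07, adjusted p = 0.0351), a call that held without replicate 2 of ALDHbr and was lost without any of the other 5 libraries (adjusted p = 0.0715 to 0.144). With the replicate block, AHR was also called lower in ALDHbr cells of SUM159, at -0.22 (SE 0.07, adjusted p = 0.0185) instead of -0.23 (SE 0.12, adjusted p = 0.193), as it was without replicate 2 of ALDHneg (-0.37, adjusted p = 0.0244). CYP1B1 gave 0.06 in SUM159 (adjusted p = 0.943) and -0.19 in SW620 (adjusted p = 0.219), and the latter became -0.32 (adjusted p = 0.00792) without replicate 2 of SW620 ALDHbr under DMSO. ARNT gave -0.13 in SW620 (adjusted p = 0.355), which became -0.26 (adjusted p = 0.0282) without the same library. In all, 2 of 5 genes were called in each line, where 23.0% of genes were called in SUM159 (5388 genes with the block instead of 3432) and 11.3% in SW620 (5487 genes without replicate 2 of ALDHbr instead of 1577, and 712 to 772 without any other library). In the difference of these population effects between the lines, ARNT was called too, at -0.42 (SE 0.13, adjusted p = 0.0298), and lost the call without replicate 3 of SUM159 ALDHbr, replicate 2 of SUM159 ALDHneg, replicate 1 or 3 of SW620 ALDHbr, or replicate 1 or 2 of SW620 ALDHneg (adjusted p = 0.0600 to 0.0914).

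Between the lines, the main difference lay in CYP1B1. Under DMSO it was higher in SW620 than in SUM159 by a log2 fold change of 6.82 (SE 0.14, adjusted p = 1.24e-23), from 0.538 ± 0.228 and 0.499 ± 0.206 CPM in the ALDHbr and ALDHneg cells of SUM159 to 55.5 ± 8.06 and 63.0 ± 4.05 CPM in those of SW620 (SD, n = 3, scaled over all 24 libraries). Even the NIF groups of SW620, at 17.2 and 12.8 CPM, stood above all SUM159 groups. ARNT and AHR were lower in SW620, by log2 fold changes of -0.67 (SE 0.07, adjusted p = 1.49e-09) and -0.48 (SE 0.10, adjusted p = 7.24e-05). CYP1A1 was lower by -0.54 on the log2 scale (SE 0.19, adjusted p = 0.0106), and this call was lost without replicate 1 of SUM159 ALDHbr under DMSO (-0.39, adjusted p = 0.0565). TIPARP differed by -0.09 (SE 0.05, adjusted p = 0.131), and scaling by library size alone gave -0.25 (adjusted p = 0.000594). TIPARP was also called without replicate 3 of SUM159 ALDHbr (-0.13, adjusted p = 0.0346) or ALDHneg (-0.14, 0.0273) and without replicate 2 of SW620 ALDHbr (-0.13, 0.0230). In this comparison 86.6% of genes were called, so that a call by itself sets these genes apart little. Tissue of origin, culture and preparation differ with the line and cannot be told apart.

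Ordered by mean over both lines, on the CPM scale of all 24 libraries, CYP1A1 was highest in SUM159 ALDHneg cells under DMSO (14.5 CPM), followed by SW620 ALDHbr (9.09), SUM159 ALDHbr (5.64) and SW620 ALDHneg cells (4.20) under DMSO. The NIF groups followed, from SW620 ALDHbr (2.15) over SUM159 ALDHneg (1.37) and SW620 ALDHneg (0.708) to SUM159 ALDHbr cells (0.452). Only SUM159 ALDHbr and SW620 ALDHneg under DMSO, and SW620 ALDHbr and SUM159 ALDHneg under NIF, overlapped as neighbours in this order. The first of these overlaps rests on replicate 3 of SUM159 ALDHbr (2.50 CPM), since its other replicates, at 7.96 and 6.46 CPM, lay above the highest SW620 ALDHneg library (4.64 CPM). For TIPARP the 6 upper groups, from 103 down to 77.7 CPM, each overlapped the next, and the SUM159 NIF groups (51.7 and 46.0 CPM) lay apart below. For AHR all neighbours overlapped between 84.1 and 53.4 CPM. For ARNT the 4 SUM159 groups (40.1 to 49.1 CPM) lay above the 4 SW620 groups (26.7 to 29.2 CPM).

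Genes with the most similar pattern to CYP1A1 were sought by the correlation of log2 CPM over the 24 libraries, after the mean of each line was removed, among 10151 genes. As the libraries fall into treatment groups, r describes the shared pattern of these 8 groups and is given without a test. The highest values were those of CD24 (r = 0.943), whose near-identical copies make its count uncertain, INSIG1 (0.916), a regulator of sterol synthesis, MAP3K8 (0.908), BIRC3 (0.906), an inhibitor of apoptosis, and AOPEP (0.890). The most opposite were FRMD5 (r = -0.943), EXOC7 (-0.901) and KLHL21 (-0.891). For CYP1B1 they were DPYSL2 (0.919), SREBF2 (0.913), the transcription factor of sterol synthesis, SUCLG2 (0.896), TMTC4 (0.895) and MSMO1 (0.891), a sterol synthesis enzyme. The most opposite to CYP1B1 were HMOX1 (-0.921), the stress-induced heme oxygenase, NECAP1 (-0.901) and GOT1 (-0.898). In SUM159 CYP1B1 held only 1 to 32 reads per library, so counting error enters its r there. Whether the genes named share a function was not tested.

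The wider pathway was taken as 51 genes in 6 lists, which hold enzymes that make ligands, the cytoplasmic receptor complex, other bHLH-PAS factors, coregulators, xenobiotic targets and other reported targets. In SUM159 ALDHbr cells, 1 of 41 tested genes was higher and 6 were lower under NIF (17.1% called, against 3.16% of all genes), and the list's median was -0.12. In SUM159 ALDHneg cells 0 were higher and 5 lower (12.2% against 3.30%), with a median of -0.08. In SW620 ALDHbr cells 10 of 35 were higher and 5 lower (42.9% against 43.3%), and in SW620 ALDHneg cells 10 were higher and 6 lower (45.7% against 45.1%), with medians of 0.13 and 0.05. The median over all genes tested lay between -0.0076 and 0.0033. Among all genes called in SUM159, 140 were higher and 333 lower in ALDHbr cells, and 164 and 329 in ALDHneg cells. The SUM159 share called was above the share of all genes and the SW620 share near it. Since the lists were chosen with earlier results of these data known, nothing is read from the SUM159 excess. With the replicate block the SUM159 counts were 1 higher and 9 lower in ALDHbr cells and 3 higher and 8 lower in ALDHneg cells. Without replicate 3 of ALDHbr under DMSO they were 0 higher and 6 lower in ALDHbr cells. In ALDHneg cells 3 genes were lower without replicate 1 under DMSO or without replicate 2 or 3 under NIF, and 2 without replicate 1 under NIF. In SW620 ALDHbr cells 18 genes were higher without replicate 2 under DMSO.

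Among the xenobiotic targets named here, NQO1 was higher where called, against CYP1A1, and ABCG2 was lower in SW620. The share of all genes called was 3.16% in SUM159 ALDHbr, 43.3% in SW620 ALDHbr and 45.1% in SW620 ALDHneg cells. NQO1, a quinone reductase that NRF2 also induces, was higher under NIF in SUM159 ALDHbr cells (log2 fold change 0.48, SE 0.12, adjusted p = 0.0345). That call was lost without replicate 3 under DMSO (0.42, adjusted p = 0.128) and without replicate 1 under DMSO or replicate 1 or 2 under NIF (adjusted p = 0.0751 to 0.161). NQO1 was also higher in SW620 ALDHbr (0.85, SE 0.06, adjusted p = 1.06e-07) and ALDHneg cells (0.92, SE 0.06, adjusted p = 4.05e-08). Its mean rose in SW620 ALDHbr cells from 819 ± 67.3 to 1479 ± 81.7 CPM (SD, n = 3). ABCG2, an efflux pump, was lower in SW620 by -0.74 (SE 0.05, adjusted p = 8.76e-08) in ALDHbr and -0.86 (SE 0.05, adjusted p = 1.68e-08) in ALDHneg cells. CYP1A2, the liver relative of CYP1A1, had 0 to 13 reads per library and was not tested. Of the 9 genes of this list, 3 were tested in SUM159 and 6 in SW620.

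Of the other targets, 4 of 10 were lower in SUM159 ALDHbr and 3 of 10 in ALDHneg cells under NIF. Among all genes there 3.16% and 3.30% were called, most of them lower. The lowest fold change called in ALDHbr cells was that of IL1B, an inflammatory cytokine, at -2.10 (SE 0.34, adjusted p = 0.00318), and in ALDHneg cells that of EREG, an EGFR ligand, at -0.75 (SE 0.15, adjusted p = 0.0125). NFE2L2, which encodes NRF2, was lower in both, by -0.44 (SE 0.07, adjusted p = 0.00282) and -0.37 (SE 0.07, adjusted p = 0.0118). In ALDHneg cells the EREG call was lost without replicate 1 (adjusted p = 0.0516) or 2 (0.0532) under NIF, and that of NFE2L2 without replicate 1 under DMSO (0.0582) or replicate 1 (0.0516) or 3 (0.0674) under NIF. In SW620, 3 of 7 were higher in each population, where 43.3% and 45.1% of all genes were called in either direction. PTGS2 was lower in ALDHneg cells (-0.55, SE 0.20, adjusted p = 0.0409), a call lost without replicate 1 or 2 under DMSO or replicate 1 or 3 under NIF (adjusted p = 0.0717 to 0.199) and in the fit of 24 libraries (0.142). SLC7A5, an amino acid transporter that carries AHR ligands, rose there by 0.99 (SE 0.06, adjusted p = 7.50e-09) in ALDHbr and by 1.13 (SE 0.06, adjusted p = 1.53e-09) in ALDHneg cells. NFE2L2 was higher in SW620 ALDHbr cells by 0.12 (SE 0.05, adjusted p = 0.0439), but the call was lost without replicate 1 or 3 under either treatment (adjusted p = 0.0559 to 0.155), with the replicate block (0.0827), with scaling by library size alone (0.136), in the fit of 24 libraries (0.123), with only the groups compared (0.160) and without the filter (0.0989).

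Of the bHLH-PAS factors, 2 of 11 were called in SUM159 ALDHbr and 1 of 11 in ALDHneg cells. Of the ligand enzymes, 0 and 1 of 6 were called. All of these were lower, where 3.16% and 3.30% of all genes were called in either direction, most of them lower. SIM2, a repressor that pairs with ARNT, was lower under NIF in SUM159, by -0.80 (SE 0.10, adjusted p = 0.000543) in ALDHbr and -0.99 (SE 0.10, adjusted p = 9.88e-05) in ALDHneg cells, and NPAS3 was lower in ALDHbr cells (-1.63, SE 0.40, adjusted p = 0.0363). The NPAS3 call held without replicate 2 under DMSO and was lost without replicate 3 under DMSO (-1.68, adjusted p = 0.0673) and without each of the other 4 libraries (adjusted p = 0.0784 to 0.179). In SW620, 4 of 8 factors were higher in ALDHbr and 5 of 8 in ALDHneg cells and none was lower. Among all 13953 genes tested there, 2987 and 3114 were called higher and 3051 and 3172 lower. With 8 factors in a list chosen with earlier results known, nothing is read from these counts. NPAS1 was at 1.37 (SE 0.29, adjusted p = 0.00167) in ALDHbr and 1.58 (SE 0.28, adjusted p = 0.000429) in ALDHneg cells. BMAL2 rose by 0.51 (SE 0.06, adjusted p = 7.30e-06) in ALDHbr and SIM2 by 0.43 (SE 0.10, adjusted p = 0.00423) in ALDHneg cells. KYNU, a kynureninase of tryptophan breakdown, was lower in SUM159 ALDHneg cells (-0.45, SE 0.11, adjusted p = 0.0430), a call that held without replicate 2 under DMSO and was lost without each of the other 5 libraries (adjusted p = 0.0529 to 0.187), with only the groups compared (0.111) and without the filter (0.0749). It was higher in SW620 ALDHbr (1.11, SE 0.12, adjusted p = 5.63e-06) and ALDHneg cells (1.00, SE 0.12, adjusted p = 7.72e-06). In the test of the difference of the NIF effects of the lines, 12 of 44 pathway genes were called toward SW620 and 4 toward SUM159 (36.4% against 35.1% of all genes).

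No gene of the receptor complex (4 tested) or of the coregulators (7 tested) was called in SUM159. With 3.16% and 3.30% of all genes called there, 0 calls in lists this short say little. They do not show by themselves that the lines differ. Of the receptor complex, 3 of 4 genes were lower in each SW620 population. Of all genes, 43.3% and 45.1% were called there in either direction. HSP90AA1, which shares near-identical sequence with other HSP90 genes, was lower in SW620 by -0.28 (SE 0.06, adjusted p = 0.00115) in ALDHbr and -0.33 (SE 0.06, adjusted p = 0.000265) in ALDHneg cells. The cochaperone PTGES3 was at -0.22 (SE 0.06, adjusted p = 0.00750) in ALDHbr and HSP90AB1 at -0.21 (SE 0.06, adjusted p = 0.0111) in ALDHneg cells. NRIP1, a corepressor, was the 1 of 7 coregulators called in each SW620 population, where 43.3% and 45.1% of all genes were called, at -0.92 (SE 0.13, adjusted p = 6.28e-05) in ALDHbr and -1.21 (SE 0.13, adjusted p = 3.84e-06) in ALDHneg cells. Under DMSO, the pathway genes differed between ALDHbr and ALDHneg cells in 13 of 41 in SUM159 (31.7% against 23.0%) and in 6 of 35 in SW620 (17.1% against 11.3%). The SW620 count was 20 without replicate 2 of ALDHbr and 2 to 4 without any other library.

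**Figure D5:**
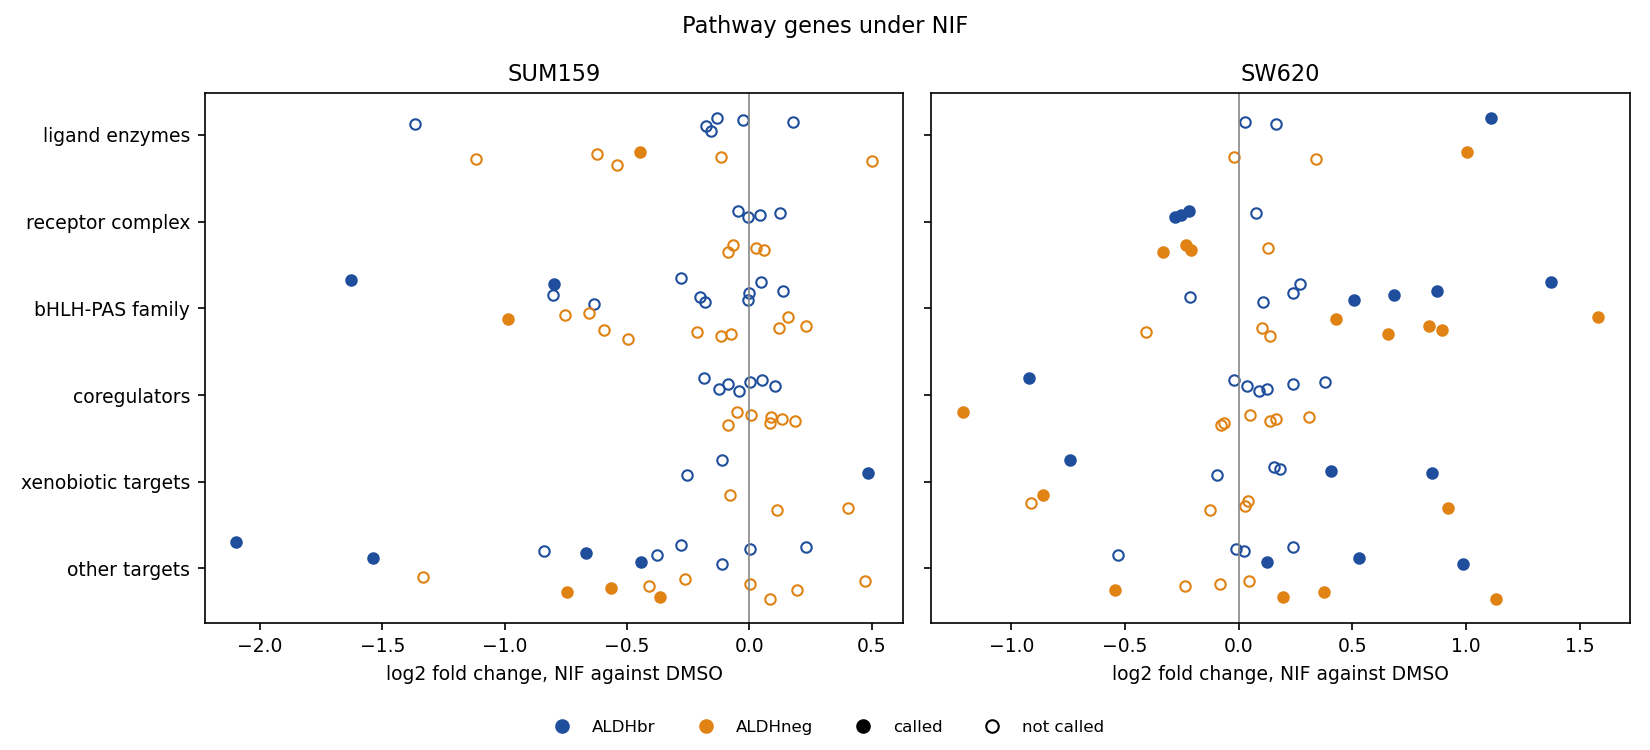
Log2 fold change of NIF against DMSO for each tested pathway gene, by list, in SUM159 (left) and SW620 (right), with blue points for ALDHbr and orange points for ALDHneg cells, filled where the gene was called. Filled points lie mostly below 0 in SUM159 (1 of 7 above 0 in ALDHbr and 0 of 5 in ALDHneg cells) and on both sides in SW620 (10 of 15 and 10 of 16 above 0). Most of all genes called in SUM159 were lower too (333 of 473 in ALDHbr and 329 of 493 in ALDHneg cells).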

How the data were processed

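RNA of 24 libraries was analysed, 3 for each combination of cell line (SUM159, SW620), sorted population (ALDHbr, ALDHneg) and treatment (NIF or DMSO for 30 h). Total RNA was made into libraries with a stranded total RNA kit, and the submitters' processing notes name FastQC, STAR and the GRCh38 genome build, without versions. The authors deposited raw counts of reads per gene, as whole numbers without normalization, for 28307 genes, 4579 of them without a read in any library. The counting tool, its strand setting and the annotation are not given in the sources used here, so that overlapping, antisense and near-identical genes are uncertain. The median total was 36520935 counts per library. Replicates of a group differed by more than sampling noise (chi-square per gene 1.95 to 43.1 over 24 pairs), so none was counted as a repeat.

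The counts were tested with edgeR 4.0.16 in R 4.3.3 (filterByExpr by group, TMM, quasi-likelihood F test, Benjamini-Hochberg adjustment over all genes tested, threshold 0.05), in 1 fit of 12 libraries for each line and in 1 fit of 24 libraries for comparisons of the lines. The filter kept 14953 genes in SUM159, 13953 in SW620 and 16271 in the joint fit, and it kept 5 of the 6 genes of the axis. The paper's methods name no test for the counts. TMM-adjusted library sizes enter all CPM values. For log2 CPM a prior count of 2 was added. The floor is 3 counts. It covers counting error only.

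The genes of the axis and the lists were chosen with earlier results of these data known. Named were all 6 genes in every group and, from the pathway lists, the called gene with the highest and the one with the lowest log2 fold change of each list in each contrast of NIF with DMSO. Likeness was searched among genes tested in both lines whose log2 CPM averaged at least 1, and the 5 most alike and 3 most opposite to CYP1A1 and CYP1B1 were named. The difference of the population effects of the lines was tested after the values had been seen. Contrasts within a line share their DMSO libraries.

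To see whether replicate numbers pair libraries, each library's deviation from its group mean was correlated with that of the same number in other groups. For SUM159 the correlation was 0.125 to 0.451 and above 0.1 in 18 of 18 pairs. The numbers were thus taken to pair these libraries, which the study describes as independent experiments. The main fits held no replicate block. The SUM159 standard errors, calls and adjusted p values therefore ignore this pairing unless the block is named. In SW620 the correlation was -0.278 to 0.214. The alternatives were a fit of only the groups compared, of all 24 libraries, with a replicate block, or without each library in turn, DESeq2 1.42.0 in place of edgeR, size factors by RLE or by library size alone, and no minimum on counts. The fits without replicate 3 of SUM159 ALDHbr under DMSO and with the block were added after the data were seen. The steps were tested on simulated data.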

Additional observations from a re-analysis of the deposited data

Results flagged for a closer look

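The NIF effect differed between the lines, by a test of the difference itself, in TIPARP and AHR. As the SW620 effect minus the SUM159 effect on the log2 scale, the difference was 1.15 in TIPARP (adjusted p = 3.80e-11). TIPARP was lower in SUM159 and higher in SW620, where the rise was called in the main fit in ALDHbr cells only. The difference was 0.40 in AHR (adjusted p = 0.0244), a call lost without some libraries and with scaling by library size alone. These genes were followed because CYP1A1 fell under NIF in the same libraries, and for CYP1A1 itself this difference is given without a test. The final NIF dose of each line was not known here, so dose and line cannot be told apart. The difference of ALDHbr from ALDHneg cells under DMSO also differed between the lines, by 2.48 in CYP1A1 (adjusted p = 4.17e-05), where the populations had opposite order. It differed by -0.42 in ARNT (adjusted p = 0.0298), a call lost in 6 of 12 fits that leave out a library and with scaling by library size alone (adjusted p = 0.0668). This test was added after the values had been seen. The adjusted p values are those of edgeR's quasi-likelihood test in the fit of 24 libraries.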

How the results depend on the processing

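The lower levels of CYP1A1 and CYP1B1 under NIF kept their direction in all 4 populations under every alternative run, and so did TIPARP. DESeq2 gave no adjusted p for CYP1B1 in SUM159. Values near 0 changed sign. ARNT under NIF in SUM159 ALDHneg cells was -0.0017 with library size scaling and -0.089 to 0.092 when a library was left out, and in SW620 ALDHbr cells -0.011 to 0.21. In SW620 ALDHneg cells it was 0.0020 in the fit of 24 libraries, 0.0019 with DESeq2, 0.0049 without the filter, 0.00092 with only the groups compared, 0.0018 with RLE factors, and -0.029 to 0.025 when a library was left out. When a library was left out, ALDHbr against ALDHneg gave -0.31 to 0.48 for CYP1B1 in SUM159 and -0.11 to 0.22 for AHR in SW620. The difference of the NIF effects of the populations gave in SUM159 -0.64 to 0.17 for CYP1A1, -0.92 to 0.39 for CYP1B1, -0.19 to 0.11 for AHR and -0.18 to 0.0029 for ARNT, and in SW620 -0.17 to 0.16 for AHR and -0.014 to 0.20 for ARNT. The difference of the population effects of the lines gave -0.66 to 0.16 for CYP1B1. The cause was not tested.

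Counts of called genes moved as follows. Under NIF in SUM159, ALDHbr cells had 473 called genes, 725 in the fit of 24 libraries, 875 with DESeq2, 1994 with the replicate block, 1097 with the block and without replicate 3 of ALDHbr under DMSO, and 222 to 322 when a library was left out (222 to 307 without any other than that replicate 3). ALDHneg cells had 493, and 743, 884, 1970 and 1817 in the same order, 292 with only the groups compared, and 192 to 584 when a library was left out, with at most 310 without replicate 1 or 3 in either treatment. SW620 gave 5053 to 7136 in ALDHbr and 5352 to 5490 in ALDHneg cells when a library was left out. ALDHbr against ALDHneg gave 5388 with the replicate block and 2543 to 3136 without a library in SUM159, and 729 with only the groups compared and 712 to 5487 without a library in SW620. The difference of the NIF effects of the populations in SUM159 gave 1 in the fit of 24 libraries, 2 with DESeq2, 3 without the filter, 6 with the replicate block, 6 with the block and without replicate 3, and 0 to 2 without a library. In SW620 it gave 4, 29 and 4 in the first 3 of these, 4 with library size scaling, 2 with the replicate block and 1 to 27 without a library. Leaving out a library gave 14048 to 14267 between the lines, 5318 to 6169 for the difference of their NIF effects and 2154 to 4586 for that of their population effects.

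Of the 5 genes of the axis, 4 were called under NIF in SW620 ALDHneg cells with only the groups compared. ALDHbr against ALDHneg called 1 in each line with library size scaling or only the groups compared, as ARNT and TIPARP lost their calls, and the difference of the population effects of the lines called 1 with library size scaling. Leaving out a library called 2 to 3 under NIF in each SUM159 population and 3 to 4 in SW620 ALDHbr cells, 1 to 2 and 1 to 4 for ALDHbr against ALDHneg in SUM159 and SW620, 0 to 1 for the difference of the NIF effects of the SW620 populations, 3 to 5 between the lines, and 2 to 3 and 1 to 2 for the differences of their NIF and population effects. Among the genes of the axis, the replicate block turned no other call than those of AHR given for SUM159. Replicate numbers in SW620 mark no pairing beyond the number. Scaling by library size moved the median of all genes by over 0.1 only between the lines, from -0.06 to -0.22, beside the shift of TIPARP from -0.09 to -0.25. With only the groups compared, 15 pathway genes were higher and 10 lower under NIF in SW620 ALDHneg cells. Depth limits AHRR and the SUM159 level of CYP1B1.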
